A study of Mus musculus with 18 samples.

Results

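Immediate early genes were examined as a group of 10 genes, *Fos*, *Fosb*, *Jun*, *Junb*, *Egr1*, *Egr3*, *Atf3*, *Ier2*, *Nr4a1* and *Dusp1*, chosen by gene symbol in a table of 101256 ChIP-seq peaks from mouse heart. The symbols of 8 of the 10 genes were found, in 23 peaks assigned to their promoters. *Atf3* and *Dusp1* had no peak under their symbol and receive no value as members. The peaks were measured in ventricles of 3 genotypes, with 2 libraries per genotype for RNA polymerase II (Pol II), 2 for the DNA-binding protein CTCF and 1 for IgG, the background antibody. The hearts were WT, *Trdn-as* KO, where a polyadenylation signal in the first exon ends transcription of the antisense RNA early, and *Mettl3* KO, labelled Mettl3lox/lox:alphaMHC-MerCreMerpos, in which tamoxifen deletes the m6A methyltransferase gene. The *Trdn-as* KO was made by injecting edited embryonic stem cells, followed by backcrossing to C57BL/6. The alphaMHC promoter drives the inducible Cre in cardiomyocytes, so the other heart cells keep *Mettl3*. The labels name the controls WT. The study's methods describe floxed mice without Cre that also received tamoxifen, but whether the WT hearts used for ChIP came from such mice is not given in the sources used here, so Cre, tamoxifen, the floxed alleles and the loss of *Mettl3* cannot be told apart. The methods place the tamoxifen injections in young adults, and the labels give no age. Chromatin was made from the snap-frozen ventricles of 2 hearts, and nuclei were isolated from the thawed tissue before they were fixed. Nothing states that the 2 libraries of a genotype came from separate animals, so the p-values measure only the spread between these libraries.

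Immediate early genes are switched on within minutes of a stimulus without new protein synthesis, when kinases activate transcription factors such as SRF, its ELK partners and CREB that already sit at their promoters. Most encode transcription factors, such as the FOS and JUN proteins that pair to form AP-1, and others encode phosphatases or RNA-binding proteins that end the signal. In heart they respond to stretch, adrenergic stimulation and ischemia, and also to the removal and cooling of the tissue, so their activity is often read as a trace of how tissue was handled. The time from death to freezing is not given in the sources used here.

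The Pol II libraries held between 1987861 and 4954148 reads in peaks, estimated from the spacing of the deposited values. This was 18.6% of the uniquely mapped reads in *Trdn-as* KO replicate 2 and between 35.5% and 42.6% in the other Pol II libraries. Pol II at the main peak of *Trdn-as* was 530 and 595 for WT and 140 and 100 for *Trdn-as* KO, while Pol II at the promoter of *Mettl3* does not check a deletion inside the gene. Peaks on chromosome Y held no Pol II signal in *Trdn-as* KO and a summed value between 223 and 326 in the other genotypes, so sex and this genotype cannot be told apart. The main peaks of 6 cardiomyocyte markers summed to between 15029 and 21250 in each Pol II library, against 142 to 195 for the 4 leukocyte markers with a peak. Per kb of peak these markers were closer, with 91.4 to 316 for the cardiomyocyte and 63.9 to 87.2 for the leukocyte genes. The 5 fibroblast markers summed to between 795 and 827 for WT, 851 and 1185 for *Trdn-as* KO and 1556 and 1599 for *Mettl3* KO. In such bulk chromatin, fewer cells of a type and less Pol II per cell cannot be told apart.

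The promoters of 7 of the 10 genes are in the RefSeq table for GRCm38.p6, from 250 bases before to 50 after the gene start. They were searched on both strands for the CArG box that SRF binds, the cyclic AMP response element TGACGTCA, the AP-1 site TGANTCA and the TATA box TATAAA. No CArG box and no AP-1 site was found in these 7 windows, the response element was found in 1 and the letters TATAAA in 2. Among all 32851 promoters of the same length the shares with a match were 1.63% for the CArG box, 1.79% for the response element, 7.81% for AP-1 and 13.6% for the TATA box. A missing match says only that these letters are not in this window. The 3 promoters with a match are shown because they hold the letters searched for, in capitals, and *Fos* and *Junb* also have Pol II values. The *Fos* promoter, chr12:85473640-85473939 on the plus strand, has TATAAA from position -33 to -28 relative to the start. The *Junb* promoter, chr8:84978699-84978998 on the minus strand, has these letters from position 1 to 6, at the annotated start and not before it as at *Fos*. The *Dusp1* promoter, chr17:26508423-26508722 on the minus strand, has the response element from position -143 to -136. No promoter sequence was matched for *Egr1*, *Egr3* and *Ier2*.
Fos: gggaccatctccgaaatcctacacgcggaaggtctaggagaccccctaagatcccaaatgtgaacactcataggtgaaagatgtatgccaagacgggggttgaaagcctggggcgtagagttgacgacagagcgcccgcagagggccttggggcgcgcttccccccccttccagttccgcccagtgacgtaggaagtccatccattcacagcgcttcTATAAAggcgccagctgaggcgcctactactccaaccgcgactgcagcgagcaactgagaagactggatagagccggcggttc
Junb: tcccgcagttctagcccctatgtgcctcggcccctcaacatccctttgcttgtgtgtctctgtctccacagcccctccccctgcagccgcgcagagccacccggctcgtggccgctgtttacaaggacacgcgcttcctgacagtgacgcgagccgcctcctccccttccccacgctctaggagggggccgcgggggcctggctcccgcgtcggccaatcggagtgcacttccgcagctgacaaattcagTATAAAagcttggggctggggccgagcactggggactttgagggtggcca
Dusp1: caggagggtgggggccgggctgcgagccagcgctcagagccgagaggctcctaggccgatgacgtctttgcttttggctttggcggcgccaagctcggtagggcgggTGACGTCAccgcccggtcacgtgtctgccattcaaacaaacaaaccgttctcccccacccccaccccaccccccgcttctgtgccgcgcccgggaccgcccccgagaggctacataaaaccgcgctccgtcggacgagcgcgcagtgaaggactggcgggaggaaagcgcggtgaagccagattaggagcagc

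Of the 23 peaks, which are given in GRCm39, 15 had enough Pol II to be tested, with a value of at least 10 in 2 or more libraries, and 12 had enough CTCF. The 8 peaks left out of the Pol II test had values between 0 and 16. For each gene the main peak is the one with the highest mean Pol II value. It covered the annotated gene start at *Jun*, *Junb*, *Fos*, *Ier2*, *Egr1* and *Nr4a1*, lay inside the gene at *Fosb* and lay wholly upstream of the start at *Egr3*. At *Jun*, *Junb* and *Ier2* the peak spans 6365, 7888 and 6341 nt and takes in the whole gene, so promoter and gene body signal are summed there. Values are the deposited normalised read counts of a peak, in which 1 Pol II read is worth between 0.945 and 2.04.

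The AP-1 subunit genes *Junb* and *Jun* had the highest Pol II values of the group. *Junb* (ENSMUSG00000052837), a JUN family subunit, had its main peak on chromosome 8 from 85700217 to 85708104 with 2000 and 1984 for WT, 1916 and 1625 for *Trdn-as* KO and 1952 and 1981 for *Mettl3* KO. *Jun* (ENSMUSG00000052684), which encodes the founding AP-1 subunit, had 1719 and 1649 for WT, 1848 and 1655 for *Trdn-as* KO and 1761 and 1989 for *Mettl3* KO on chromosome 4 from 94936197 to 94942561. *Fos* (ENSMUSG00000021250), which encodes a subunit that needs a JUN protein as its partner, had 803 and 817 for WT, 857 and 668 for *Trdn-as* KO and 896 and 928 for *Mettl3* KO on chromosome 12 from 85518544 to 85521775. At *Jun* and *Fos* both *Mettl3* KO libraries lay above both WT libraries, and at all 3 genes the second *Trdn-as* KO library lay below the first. *Fosb* (ENSMUSG00000003545), a FOS family member, had 214 and 216 for WT, 218 and 183 for *Trdn-as* KO and 228 and 187 for *Mettl3* KO inside the gene, on chromosome 7 from 19041766 to 19043132. The peak over its start, from 19043302 to 19044875, was weaker, with 127 and 148, 154 and 140, and 151 and 154 in the same order.

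The zinc finger genes *Egr1* and *Egr3* differed in level. *Egr1* (ENSMUSG00000038418) had 554 and 597 for WT, 586 and 389 for *Trdn-as* KO and 540 and 554 for *Mettl3* KO at its main peak on chromosome 18 from 34992159 to 34995074. *Egr3* (ENSMUSG00000033730), a related factor, had 278 and 247, 264 and 200, and 290 and 213 on chromosome 14 from 70311628 to 70314527. The groups overlapped at *Egr3*, and the single low *Egr1* library was *Trdn-as* KO replicate 2. *Ier2* (ENSMUSG00000053560), a nuclear protein gene induced with *Fos*, had 1531 and 1484 for WT, 1565 and 1226 for *Trdn-as* KO and 1399 and 1391 for *Mettl3* KO on chromosome 8 from 85386233 to 85392573. *Nr4a1* (ENSMUSG00000023034), an orphan nuclear receptor gene, had 128 and 119 for WT, 107 and 108 for *Trdn-as* KO and 87 and 110 for *Mettl3* KO on chromosome 15 from 101151525 to 101152585. At *Nr4a1* every knockout library was below both WT libraries, with between 53 and 126 reads per library behind these values.

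**Figure D1:**
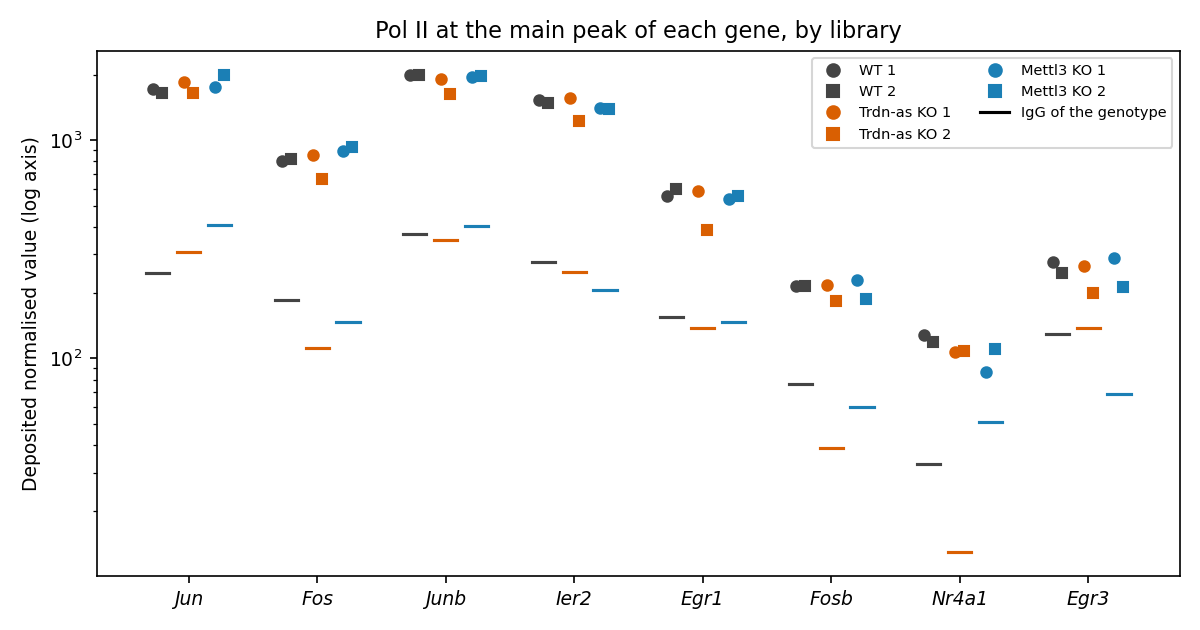
Deposited normalised Pol II value on a log axis at the main peak of each of the 8 genes, with 1 point per library (circles replicate 1, squares replicate 2) and a short line for the IgG library of the genotype. *Junb* is highest, between 1625 and 2000, *Nr4a1* lowest, between 87 and 128, and *Trdn-as* KO replicate 2 is the lowest library at 6 of the 8 peaks.

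Peak lengths differ, so genes were ordered by the Pol II value per kb of the main peak, averaged over the 6 libraries. *Jun* was highest with 278 ± 20.4 per kb (SD, n = 6), followed by *Fos* with 256 ± 28.3, *Junb* with 242 ± 18.1 and *Ier2* with 226 ± 19.4. *Egr1* had 184 ± 25.9, *Fosb* 152 ± 13.4, *Nr4a1* 104 ± 13 and *Egr3* 85.7 ± 12.4 per kb. The ranges of neighbouring genes in this order overlapped, except that every library of *Fosb* exceeded every library of *Nr4a1*. The median over the main peaks of 13979 genes was 132 per kb, so the first 6 genes stood above the middle of the promoters and *Nr4a1* and *Egr3* below it. *Jun* was above 92.2% of these main peaks and *Egr3* above 34.5%.

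Pol II exceeded IgG at every main peak when both were divided by the uniquely mapped reads of the library. The ratio over the 8 genes and 6 libraries had a median of 13. For all main peaks the medians of the 6 libraries lay between 5.13 and 12.9, with a median of 11. Ratios of the members ranged from 2.3 at *Egr3* in *Trdn-as* KO replicate 2 to 25.5 at *Jun* in WT replicate 2. The first of these is the library with 18.6% of its reads in peaks. Median ratios were 18.6 at *Ier2*, 16.4 at *Fos*, 14.4 at *Jun* and 13.9 at *Junb*, and 7.43 at *Egr3*. *Egr3* was last in both orders. The IgG libraries are shallow, with 273493 to 813075 reads in peaks, and the lowest IgG value, 13 at *Nr4a1* in *Trdn-as* KO, rests on a value of 6.57 per read. In the deposited scaling, which raises the shallow IgG libraries, the median ratio was 4.68.

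**Figure D2:**
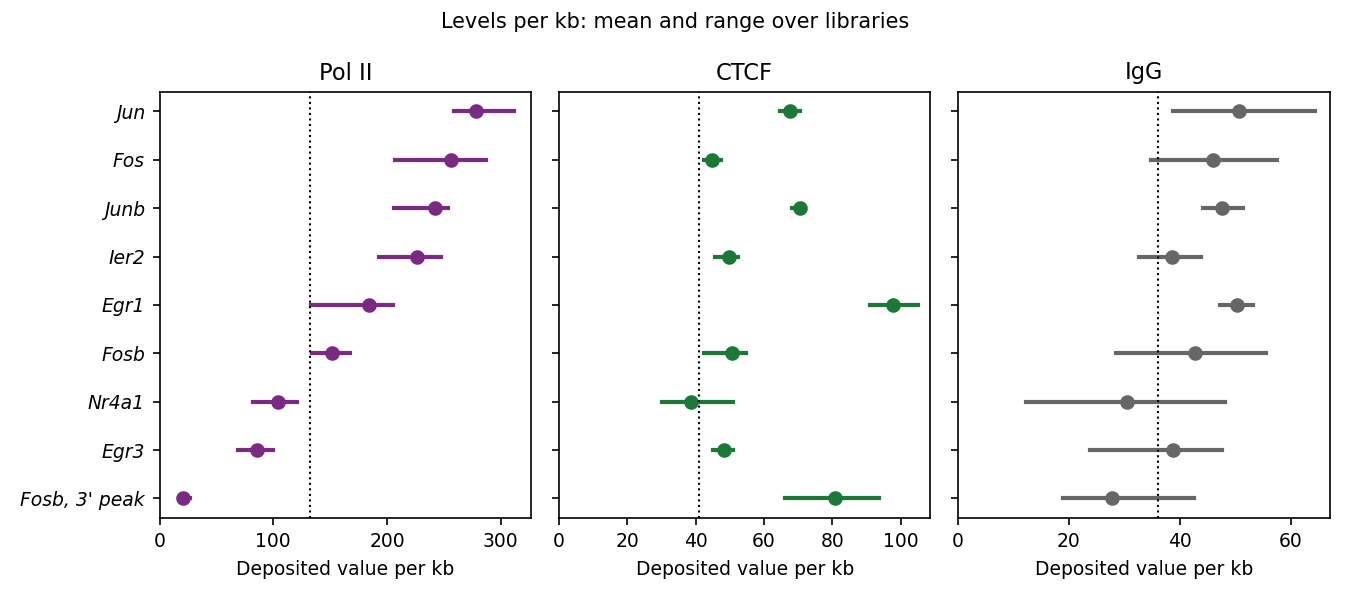
Deposited value per kb at the main peak of each gene and at the 3′ peak of *Fosb*, for Pol II, CTCF and IgG. Points are means and lines the range over 6, 6 and 3 libraries, and the dotted line in each panel is the median of the main peaks of 13979 genes for that antibody. Pol II falls from *Jun* to *Egr3*, while CTCF is highest at *Egr1* and at the 3′ peak of *Fosb*, where Pol II is lowest.

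The 2 libraries of a genotype were compared at the 8 main peaks, as a measure of how far Pol II at these genes varied between them. Whether they came from separate preparations of chromatin is not stated. In WT they agreed closely, with a median difference of 0.05 and a largest difference of 0.17 (log2), at *Egr3*. In *Mettl3* KO the median was 0.11, with 0.44 at *Egr3*, 0.33 at *Nr4a1* and 0.28 at *Fosb*, the 3 members with the lowest values. Each was set beside the peaks whose mean Pol II value lay within 1.2-fold of its own. *Egr3* was above 99.4% of 2585 such peaks and *Jun*, with 0.18, above 97.4% of 39, while *Fosb* was above 90% and *Nr4a1* above 78.5%. The difference at *Nr4a1* rests on 72 and 69 reads, for which the counting error is 0.24 (log2), and *Egr3* on 240 and 133 reads with 0.16. These genes did not move together, since *Egr3* and *Fosb* were lower in replicate 2 and *Nr4a1* and *Jun* were higher there. *Ier2*, *Junb*, *Egr1* and *Fos* differed by 0.05 or less between the same libraries.

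In *Trdn-as* KO the second library was lower at 7 of the 8 genes, with a median difference of -0.30 (log2). The drop was 0.59 at *Egr1*, where 586 fell to 389, and 0.40 at *Egr3*, while *Nr4a1* had 107 and 108. Over the 11063 peaks with Pol II values in the range of the members, the median difference between these libraries was -0.34 and 96% of peaks were lower in replicate 2. Beside peaks within 1.2-fold of its own level, *Egr1* was above 98.1% of 1133 and each of the other 7 genes was above fewer than 90% of its peaks. This window was chosen after the values were seen. Per uniquely mapped read the second library was lower at all 8 genes, with a median difference of -0.95 (log2) and a range from -1.24 at *Egr1* to -0.64 at *Nr4a1*, and the median over the peaks in the range of the members was -0.99. This is the library with 18.6% of its reads in peaks. Whether handling of the tissue differed between hearts was not tested.

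Over all 6 Pol II libraries the coefficient of variation at the main peaks had a median of 9.92% for the 8 genes, against 15.1% for all peaks between the lowest and the highest member, which were not matched to each gene's level. *Jun* with 7.35% and *Junb* with 7.47% varied least, and *Egr3* with 14.4% most. For CTCF the median was 4.95% for the 8 genes and 9.18% for the peaks in their range, and *Nr4a1* was the exception with 18.3%. CTCF replicates differed at the 8 genes by a median of 0.10 (log2) in WT, 0.07 in *Trdn-as* KO and 0.06 in *Mettl3* KO. The largest CTCF difference between replicates of a member was 0.37, at *Fosb* in *Trdn-as* KO, with 58 and 75.

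**Figure D3:**
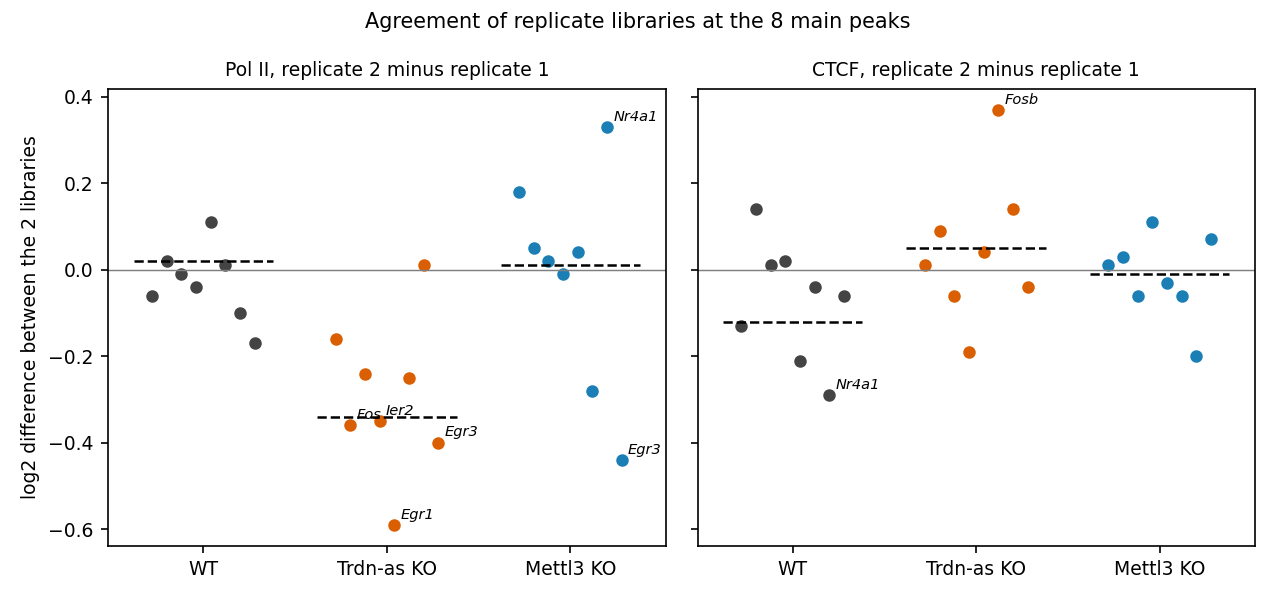
Difference between the 2 libraries of a genotype (replicate 2 minus replicate 1, log2) at the 8 main peaks for Pol II and CTCF, with 1 point per gene and dashed lines at the median over the peaks between the lowest and the highest member. The *Trdn-as* KO Pol II points lie around the dashed line at -0.34, and the widest scatter around a line near 0 is in *Mettl3* KO.

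The first comparison asks whether Pol II at immediate early genes changes when *Trdn-as* transcription is cut short. None of the 15 tested peaks passed limma at an adjusted p below 0.05, where 0.304% of all 52655 tested peaks did, and none had an unadjusted p below 0.05, beside 7.7% of all tested peaks. *Jun* was at 1684 ± 49.5 (SD, n = 2) for WT and 1751.5 ± 136 for *Trdn-as* KO, a log2 fold change of 0.05 with a 95% interval from -0.17 to 0.28. *Egr1* went from 576 ± 30.4 to 488 ± 139, a log2 fold change of -0.27 (-0.59 to 0.05), and *Junb* from 1992 ± 11.3 to 1770.5 ± 206, -0.17 (-0.40 to 0.05). *Fos* was at -0.10 (-0.38 to 0.18) and *Ier2* at -0.12 (-0.37 to 0.12). The estimate was below 0 at 7 of the 8 main peaks, with a median of -0.15 against -0.03 over all main peaks tested, of which 43% had an estimate above 0. Scaled by uniquely mapped reads, all 8 were below 0, with a median of -0.75 against -0.63, so the size of these estimates depends on the scaling. At *Junb* and *Nr4a1* the *Trdn-as* KO libraries lay wholly below WT, as 2 of the 15 peaks did, where the libraries did not overlap at 32% of all tested peaks.

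The low second *Trdn-as* KO library set the size of the estimates at most of these genes, but not at *Nr4a1*, which was at -0.20 without it and -0.19 without replicate 1. Without the second library, the log2 fold changes were 0.08 at *Fos*, 0.05 at *Ier2*, 0.03 at *Egr1* and -0.06 at *Junb*. Without replicate 1 in its place, *Egr1* at -0.56, *Ier2* at -0.30, *Junb* at -0.29 and *Fos* at -0.28 had limma adjusted p between 0.0049 and 0.035, in a fit that lets the lone library vary like the other groups. In that fit 4.3% of all tested peaks were called, against 0.304% with both libraries.

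The second comparison asks the same of the loss of *Mettl3* in cardiomyocytes. Again none of the 15 peaks was called, where 1.19% of all tested peaks were, the smallest limma adjusted p was 0.17 and 2 peaks had an unadjusted p below 0.05, beside 15.5% of all tested peaks. *Fos* went from 810 ± 9.9 for WT to 912 ± 22.6 for *Mettl3* KO, a log2 fold change of 0.17 (-0.11 to 0.45), and *Jun* from 1684 ± 49.5 to 1875 ± 161, 0.15 (-0.08 to 0.38). *Ier2* went from 1507.5 ± 33.2 to 1395 ± 5.66, -0.11 (-0.36 to 0.13), and *Nr4a1* from 124 ± 6.36 to 98.5 ± 16.3, -0.33 (-0.82 to 0.15). Scaled by uniquely mapped reads these estimates were 0.03 at *Fos*, 0.01 at *Jun*, -0.25 at *Ier2* and -0.47 at *Nr4a1*. Scaled by the median of ratios within Pol II they were 0.07, 0.05, -0.21 and -0.43 in the same order. *Junb* at -0.02, *Egr1* at -0.07, *Fosb* at -0.06 and *Egr3* at -0.08 had estimates smaller than their standard errors of 0.11, 0.16, 0.20 and 0.20. With 1 library left out the estimate ranged from -0.50 to -0.16 at *Nr4a1*, the ends being without *Mettl3* KO replicate 2 and replicate 1, from 0.06 to 0.24 at *Jun*, without replicate 2 and replicate 1 of the same genotype, and from -0.13 to -0.02 at *Egr1*, without WT replicate 1 and replicate 2. The libraries of the genotypes did not overlap at 9 of the 15 peaks, 4 higher and 5 lower, beside 50.7% of all tested peaks.

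Most promoters had a higher Pol II estimate in *Mettl3* KO than in WT in the deposited scaling, and the estimates of the immediate early genes lay below the middle of this shift. The median log2 fold change was 0.26 over 12343 main peaks tested, of which 83.1% had an estimate above 0, and -0.07 over the 8 genes. All 8 genes were below that median, and 33.4% of main peaks lay below *Fos*, the highest of them. Scaling by the median of ratios within Pol II gave 0.17 over main peaks and -0.16 over the genes, and scaling by uniquely mapped reads 0.13 and -0.20. A change of scaling moves all peaks nearly alike, so the place of the genes below the median is no test of the scaling. With the median of ratios, *Ier2* was called lower, at a log2 fold change of -0.21 and a limma adjusted p of 0.028, where 4.93% of all tested peaks were called. The genes were listed with earlier results of these data known, so the count of 8 describes them and carries no test.

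The third comparison sets the knockouts against each other. None of the 15 peaks was called by limma, where 1.5% of all tested peaks were, and 1 had an unadjusted p below 0.05, beside 17.9% of all tested peaks. *Fos* had 762 ± 134 for *Trdn-as* KO and 912 ± 22.6 for *Mettl3* KO, which gave a log2 fold change of -0.27 (-0.55 to 0.01), and 7 of the 8 main peaks had estimates below 0, with a median of -0.11. Over all main peaks the median was -0.30 and 14.9% had an estimate above 0. All 8 genes lay above that median. With the median of ratios the median of the genes was 0.07 and 6 of 8 estimates were above 0, and with uniquely mapped reads it was -0.57 and all 8 were below 0, so their direction depends on the scaling. Libraries did not overlap at 5 of the 15 peaks, beside 43.8% of all tested peaks. Without *Trdn-as* KO replicate 1, 4 of the 15 peaks were called, beside 19.3% of all tested peaks. This comparison shares libraries with the other comparisons and is not independent of them.

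**Figure D4:**
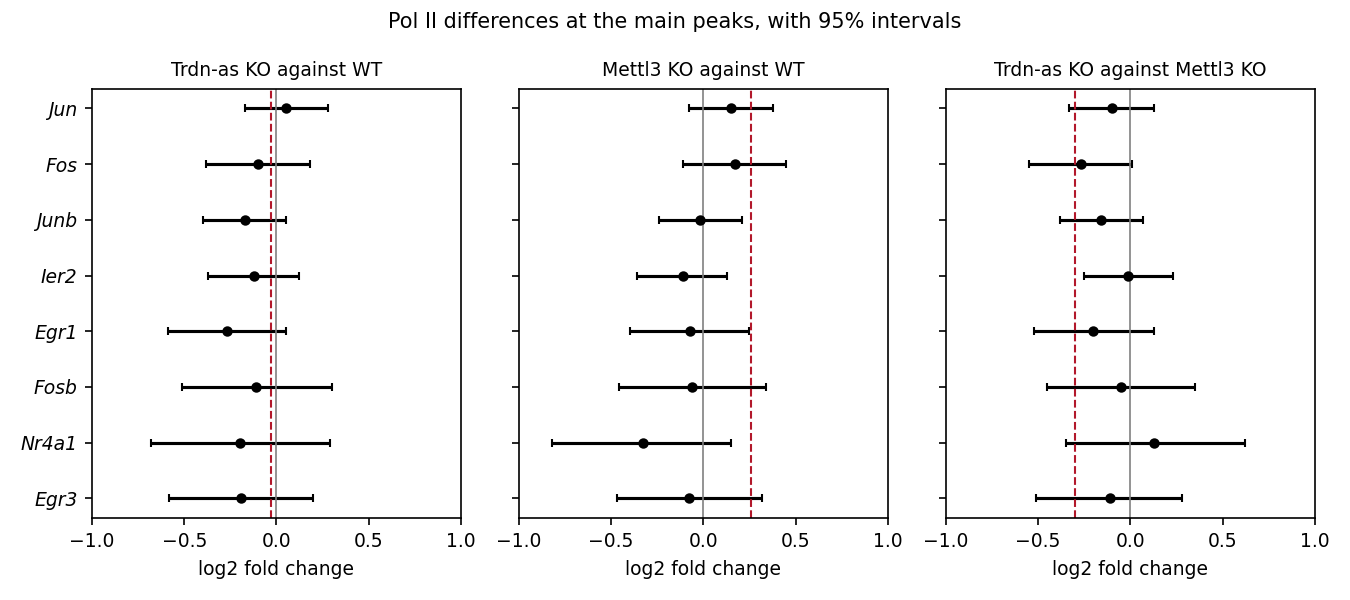
Log2 fold change of Pol II at the 8 main peaks in the 3 comparisons, with 95% intervals from limma, and a dashed line at the median over all main peaks tested. The points lie between -0.33 and 0.17, every interval spans 0, and in *Mettl3* KO against WT all 8 lie left of the dashed line at 0.26.

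*Egr1* had the most peaks of the group, 6, of which 5 were tested, and 2 of its weaker peaks had the smallest adjusted p of the members in *Mettl3* KO against WT. Larger estimates with wider intervals were found at weaker peaks, with 1.25 (-0.04 to 2.53) in *Mettl3* KO and 1.07 (-0.22 to 2.35) in *Trdn-as* KO at a peak downstream of *Jun*, whose values lay between 4 and 22, and 1.38 (-0.04 to 2.79) between the knockouts at an *Egr1* peak with values between 2 and 23. The peak centred 4423 nt before the start, on chromosome 18 from 34988134 to 34988772, had Pol II values of 45 and 44 for WT, 47 and 45 for *Trdn-as* KO and 28 and 18 for *Mettl3* KO. A peak inside the gene, from 34995126 to 34995721, had 39 and 35, 40 and 29, and 21 and 19. At both, the *Mettl3* KO libraries lay below all others, while the main peak in between overlapped across genotypes. In *Mettl3* KO against WT the upstream peak had a log2 fold change of -0.95 (SE 0.35, limma adjusted p = 0.17, unadjusted 0.0089), and the inner peak -0.86 (SE 0.38, adjusted p = 0.26). In *Trdn-as* KO against *Mettl3* KO the upstream peak had 1.00 (SE 0.35, adjusted p = 0.13). These values rest on few reads, 33 and 47 for WT and 23 and 11 for *Mettl3* KO at the upstream peak, with exact 95% Poisson intervals of 22.7 to 46.3, 34.5 to 62.5, 14.6 to 34.5 and 5.49 to 19.7 that cover counting error only. IgG at that peak was 18 in WT, 26 in *Trdn-as* KO and 41 in *Mettl3* KO, so the *Mettl3* KO Pol II values were below the IgG value of that genotype in the deposited scaling. At the inner peak IgG was 36 in WT, 13 in *Trdn-as* KO and 23 in *Mettl3* KO. Pol II there was thus near IgG in WT and below it in *Mettl3* KO. With the median of ratios the upstream peak was called in both comparisons, at -1.05 (limma adjusted p = 0.049) and 1.17 (adjusted p = 0.037), where 4.93% and 2.96% of all tested peaks were called. Scaled by uniquely mapped reads it was called in neither, at -1.09 (limma adjusted p = 0.84) and 0.55 (adjusted p = 0.54).

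**Figure D5:**
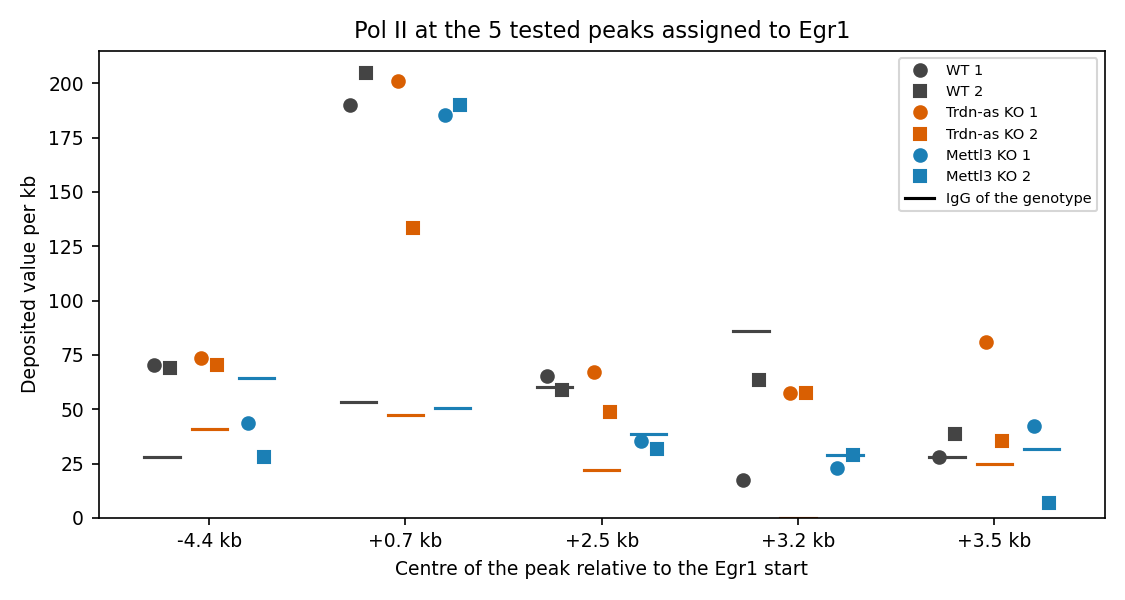
Deposited Pol II value per kb at the 5 tested *Egr1* peaks, placed by the distance of their centre from the gene start, with 1 point per library and a short line for IgG. The main peak is far above IgG in every library, and at the peaks 4423 nt before and 2548 nt after the start the *Mettl3* KO points are the lowest.

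CTCF folds chromatin into loops and was precipitated as the positive control. At the main peaks its value per kb was highest at *Egr1*, 97.7 ± 4.75 (SD, n = 6), above 96.1% of all main peaks, followed by *Junb* with 70.6 ± 1.59 and *Jun* with 67.5 ± 2.28. *Nr4a1* was lowest with 38.8 ± 7.11 per kb, and the median over all main peaks was 41. In the deposited scaling the mean CTCF value was 1.94 times the mean IgG value at *Egr1*, 1.49 at *Junb* and 0.973 at *Fos*. The median of this ratio over all main peaks was 1.08. At *Jun* the mean CTCF value was 430 and the mean IgG value 322. IgG per kb was 50.3 at *Egr1*, 47.5 at *Junb* and 50.6 at *Jun*, against a median of 36 over all main peaks. CTCF was not tested against IgG. CTCF values at *Egr1* were 306 and 265 for WT, 285 and 293 for *Trdn-as* KO and 283 and 278 for *Mettl3* KO, and each knockout overlapped WT.

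Among the 12 member peaks tested for CTCF, 1 had a mean CTCF value above its mean Pol II value, and it was singled out after its values were seen. This peak lies near the 3′ end of *Fosb*, on chromosome 7 from 19037309 to 19039046, and its mean CTCF value of 140 was 3.98 times its mean Pol II value of 35.3 and 2.91 times its mean IgG value. For comparison, peaks with CTCF of at least 100 and Pol II below 20 had a median ratio of 3.91 to IgG. CTCF there was 138 and 137 for WT, 163 and 155 for *Trdn-as* KO and 115 and 135 for *Mettl3* KO, and the 3 genotypes did not overlap, as at 3 of the 12 member peaks and at 8.82% of all peaks tested for CTCF. The limma log2 fold change was 0.35 (SE 0.09, adjusted p = 0.074) between *Trdn-as* KO and *Mettl3* KO and 0.21 (SE 0.09, adjusted p = 0.47) between *Trdn-as* KO and WT, so neither passed the threshold. The estimate between the knockouts was 0.23 without *Mettl3* KO replicate 1 and 0.46 without *Mettl3* KO replicate 2.

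None of the 12 member peaks tested for CTCF was called by limma in any comparison, and 2, 1 and 2 of them had an unadjusted p below 0.05 in *Trdn-as* KO against WT, in *Mettl3* KO against WT and between the knockouts, beside 10.2%, 15.7% and 18.8% of all tested peaks. The shares of all 60649 tested peaks called were 0.587% in *Trdn-as* KO against WT, 0.185% in *Mettl3* KO against WT and 1.37% between the knockouts. The member main peak with the smallest adjusted p was *Nr4a1*, with CTCF of 54 and 44 for WT, 38 and 42 for *Trdn-as* KO and 37 and 32 for *Mettl3* KO. Its log2 fold change in *Mettl3* KO was -0.49 (SE 0.15, limma adjusted p = 0.14, unadjusted 0.0046), and in *Trdn-as* KO -0.28 (SE 0.15, adjusted p = 0.54), which became -0.14 without WT replicate 1 and -0.43 without WT replicate 2. Both its Pol II and its CTCF values were lower in every knockout library than in every WT library. The share of all peaks with this joint pattern was not counted. Pol II libraries did not overlap at 32% of all tested peaks in *Trdn-as* KO against WT and at 50.7% in *Mettl3* KO against WT. IgG at the *Nr4a1* peak was 33, 13 and 51 in WT, *Trdn-as* KO and *Mettl3* KO. The *Mettl3* KO CTCF values were thus below the IgG value of that genotype in the deposited scaling. CTCF libraries did not overlap at 5, 5 and 7 of the 12 member peaks in the 3 comparisons, beside 32.5%, 43.5% and 47.2% of all tested peaks. The main peaks of the 8 genes had median CTCF fold changes (log2) of -0.04, -0.03 and 0.00 in the 3 comparisons, against -0.02, -0.06 and 0.04 over all main peaks.

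Other genes of the response were read from lists of 33 further immediate early genes, 11 upstream factors and 10 feedback inhibitors. Among the 31 further immediate early genes tested for Pol II, 1 fell in *Trdn-as* KO, and 1 rose and 1 fell in *Mettl3* KO. Over the main peaks of all genes tested, limma called 0.251% in *Trdn-as* KO against WT, 1.76% in *Mettl3* KO against WT and 2.06% between the knockouts, and for CTCF 0.409%, 0.169% and 0.762% in the same order. *Per1*, a repressor of the daily clock that is also an immediate early gene, had 2240 and 2322 for WT, 1812 and 1494 for *Trdn-as* KO and 1531 and 1572 for *Mettl3* KO on chromosome 11 from 68982810 to 68991417. It fell by 0.47 on the log2 scale in *Trdn-as* KO (SE 0.11, limma adjusted p = 0.042) and by 0.56 in *Mettl3* KO (SE 0.11, adjusted p = 0.0039), against the same WT libraries. *Myc*, a growth transcription factor gene, had 496 and 548 for WT, 513 and 421 for *Trdn-as* KO and 796 and 749 for *Mettl3* KO on chromosome 15 from 61854859 to 61860216. It rose by 0.57 in *Mettl3* KO against WT (SE 0.15, adjusted p = 0.043), and its log2 fold change came to -0.73 for *Trdn-as* KO against *Mettl3* KO (SE 0.15, adjusted p = 0.0042).

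*Ccn2*, a matricellular gene of fibroblasts and stretched myocytes, had 411 and 419 for WT, 384 and 336 for *Trdn-as* KO and 564 and 536 for *Mettl3* KO. Its peak is on chromosome 10 from 24470998 to 24473641, the chromosome that holds *Trdn-as*. The part of sequence carried along from the edited stem cells was not tested. *Ccn2* differed between the knockouts (log2 fold change -0.61, SE 0.16, limma adjusted p = 0.035), also for CTCF (-0.44, SE 0.10, adjusted p = 0.03), and was not called against WT. The Pol II estimate was -1.07 scaled by uniquely mapped reads, and the CTCF estimate was -0.16 with the peaks of the gene summed. Of the 9 feedback inhibitors tested, 1 rose in *Mettl3* KO, beside the 1.76% of all main peaks called in either direction. This was *Spry1*, an inhibitor of receptor tyrosine kinase signalling, with 286 and 278 for WT, 322 and 295 for *Trdn-as* KO and 443 and 448 for *Mettl3* KO (log2 fold change 0.66, SE 0.17, adjusted p = 0.038). None of the 10 upstream factors with a peak, among them *Srf*, *Elk1* and *Creb1*, was called for Pol II or CTCF, and the smallest adjusted p was 0.12. In *Mettl3* KO against WT the median Pol II fold changes (log2) were 0.11 for the further immediate early genes, 0.27 for the upstream factors and 0.19 for the inhibitors, against 0.26 over all main peaks. The direction of these calls held in every alternative run, but the calls did not. *Per1* in *Trdn-as* KO passed the limma threshold under 2 of 8 other settings and *Myc* in *Mettl3* KO under 4 of 8. Leaving out any WT or *Mettl3* KO library ended every call, in fits with a lone library in a group. With a library left out, estimates in *Mettl3* KO against WT ranged from -0.58 to -0.53 at *Per1*, 0.49 to 0.64 at *Myc* and 0.64 to 0.68 at *Spry1*. In *Trdn-as* KO against WT *Per1* ranged from -0.61 to -0.33. The summed fibroblast markers were also higher in *Mettl3* KO than in WT, as were the 5 smooth muscle and pericyte markers, with 337 to 412 for WT, 343 to 469 for *Trdn-as* KO and 541 to 577 for *Mettl3* KO, and the part of these cells in the values of *Myc*, *Ccn2* and *Spry1* was not tested.

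The pattern of the members over the 6 Pol II libraries was summarised as the median of their log2 values, each centred on its own mean. It lay between 0.03 and 0.07 in 5 libraries and at -0.22 in *Trdn-as* KO replicate 2. *Egr1* with r = 0.984 and *Junb* with 0.968 followed it most closely, and *Nr4a1* with 0.135 least. Outside the lists the 5 genes most like it among 9922 were *Nkap*, *Smpd4*, *B9d1*, *Nr2f6* and *Zfp467*, with r between 0.995 and 0.998 over the 6 libraries, and 505 genes reached 0.9. *Nkap* had 68 and 66 for WT, 70 and 39 for *Trdn-as* KO and 65 and 64 for *Mettl3* KO. All these genes share the low library, which sets the pattern, and the libraries share one scaling.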

How the data were processed

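ChIP-seq libraries for Pol II, CTCF and IgG from mouse ventricles were analysed from a table of normalised values, leaving 3 input libraries out. The authors trimmed reads with Trimmomatic 0.39, aligned them to mm39 with STAR 2.7.11b, removed duplicates with Picard 3.1.1 along with spliced and multi-mapping reads, called peaks with MACS, merged them, counted reads with featureCounts and normalised with DESeq2 1.36.0. The deposited values are this score per peak, rounded to whole numbers, and not counts, so no count test was run. The authors assign a peak to the promoter of the nearest gene.

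The value of 1 read was estimated from the spacing of the values, and the estimate was tested on simulated data. It could not be fixed for CTCF. Differences were tested on log2(value + 1), which understates changes of low values, with limma 3.58.1 in R 4.3.3, a variance trend and Benjamini-Hochberg adjustment over all peaks with at least 10 in 2 of the 6 libraries of a target. limma was tested on simulated data as well. With 2 libraries per genotype an exact test cannot go below p = 0.33. Replicate numbers did not pair libraries.

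The members and lists were chosen with earlier results of these data known. The text names the main promoter peak of each member, called list genes, up to 4 per direction, and the 5 genes of mean Pol II of at least 50 whose pattern was most like the members. Further peaks of *Egr1* and *Fosb* were described after their values were seen. Python 3.11.15, pandas 2.3.3, numpy 2.4.6 and matplotlib 3.10.9 were used.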

Additional observations from a re-analysis of the deposited data

How the results depend on the processing

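With 2 libraries per genotype the number of called peaks in the whole table depends strongly on the settings, and the cause was not tested. For Pol II in *Trdn-as* KO against WT, 160 peaks were called, and 320 with the median of ratios, 2 without the filter, 43 with only the 2 genotypes, 4 without the variance trend, 44 with the peaks of a gene summed and 17 to 2185 with a library left out. In *Mettl3* KO against WT 629 were called, and 31 with uniquely mapped reads, 2478 with the median of ratios, 987 with a pseudocount of 5, 0 without the filter (9815 at an unadjusted p under 0.05 by limma), 4891 with 2 genotypes, 2 without the trend and 0 to 4975 with a library left out. Between the knockouts 790 were called, and in the same order 214, 1487, 1282, 1, 66, 12 and 11 to 9789. For CTCF, 356 were called in *Trdn-as* KO against WT, and 58 without the filter, 40 with 2 genotypes, 156 without the trend, 75 summed and 1 to 40 with a library left out. In *Mettl3* KO 112 were called, and 644 with the median of ratios, and 0 without the filter, with 2 genotypes, without the trend or with any library left out (12240, 9585, 9093 and at least 4150 at an unadjusted p under 0.05 by limma). Between the knockouts 828 were called, and 73, 28, 244, 176 and 1 to 26.

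Replicate numbers did not pair the libraries, with correlations of deviations between -0.00957 and -0.00023 for Pol II and -0.238 and 0.0059 for CTCF. The replicate block gave 201, 756 and 950 Pol II peaks and 236, 2 and 376 CTCF peaks in the 3 comparisons. With the *Trdn-as* KO numbers crossed, an alternative chosen after seeing the data, 503 CTCF peaks were called against WT. No member was called under either block.

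Among the members the median of ratios called 2 Pol II peaks in *Mettl3* KO against WT, *Ier2* at -0.21 and the upstream *Egr1* peak at -1.05 (log2), and 1 between the knockouts, the same *Egr1* peak at 1.17. Leaving out a library gave 0 to 4 Pol II calls against WT in *Trdn-as* KO and between the knockouts, and 0 otherwise. Without *Trdn-as* KO replicate 1, which gave the 4, limma called 4.3% and 19.3% of all tested peaks. Estimates changed sign at *Jun* (-0.55) and the upstream *Egr1* peak (-0.54) with uniquely mapped reads in *Trdn-as* KO against WT, and at *Nr4a1* (-0.32) between the knockouts. Summing peaks put *Fosb* at 0.02 in *Mettl3* KO, and between the knockouts the median of ratios put *Fosb* at 0.12, *Jun* at 0.07, *Junb* at 0.02, *Egr3* at 0.06 and *Ier2* at 0.16. With a library left out, estimates in *Trdn-as* KO against WT ranged from -0.28 to 0.08 at *Fos*, -0.23 to 0.02 at *Fosb*, -0.02 to 0.13 at *Jun*, -0.29 to -0.06 at *Junb*, -0.56 to 0.03 at *Egr1*, -0.34 to 0.11 at its inner peak, -0.39 to 0.01 at *Egr3* and -0.30 to 0.05 at *Ier2*. In *Mettl3* KO they ranged from -0.20 to 0.08 at *Fosb* and -0.30 to 0.15 at *Egr3*. Between the knockouts they ranged from -0.45 to -0.09 at *Fos*, -0.19 to 0.09 at *Fosb*, -0.27 to -0.04 at *Junb*, -0.49 to 0.10 at *Egr1*, -0.33 to 0.11 at *Egr3*, -0.19 to 0.17 at *Ier2* and -0.03 to 0.30 at *Nr4a1*. The median replicate difference at the members, 0.13 for Pol II and 0.06 for CTCF, was 0.19 with uniquely mapped reads. The Pol II ratio to IgG was 13, and 4.68 in the deposited scaling. Scaling by uniquely mapped reads was not run for CTCF, because the value of 1 CTCF read could not be fixed, and the ratio of CTCF to IgG per mapped read was not computed. The 6 Pol II calls of list genes passed under 2 to 5 of 8 other settings, the CTCF call of *Ccn2* under 2 of 7, and none changed sign. The limma adjusted p of *Per1* in *Mettl3* KO ranged from 3.6e-11 to 1.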

Other observations

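*Atf3*, a stress-induced AP-1 partner, and *Dusp1*, a phosphatase that switches off MAP kinases, had no peak under their symbol. Their neighbours in the RefSeq gene order were used to find the strongest Pol II peak in between, without moving coordinates between builds and after the values were seen, and which gene these peaks belong to was not tested. Between *Neurl1b* and *Ergic1*, the neighbours of *Dusp1*, that peak spans 7353 nt on chromosome 17 from 26721502 to 26728854 (GRCm39) and is assigned to a lncRNA gene (ENSMUSG00000120402). Its Pol II values were 2194 and 2329 for WT, 2488 and 2046 for *Trdn-as* KO and 1997 and 2070 for *Mettl3* KO, as high as at *Junb*. The next strongest of the 32 peaks there had a mean of 237. The log2 fold change was -0.15 for *Mettl3* KO (SE 0.11, limma adjusted p = 0.51) and -0.00 for *Trdn-as* KO (SE 0.11), both against WT.

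Between *Batf3* and *Nenf*, the neighbours of *Atf3*, the strongest of 22 peaks, on chromosome 1 from 190914491 to 190916852, is assigned to no gene. It had Pol II values of 648 and 559 for WT, 646 and 629 for *Trdn-as* KO and 639 and 696 for *Mettl3* KO, and no comparison was called (adjusted p between 0.66 and 0.96). At both peaks *Trdn-as* KO replicate 2 was lower than replicate 1, as at most members.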
